A study of Danio rerio with 28 samples.

Results

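Whole zebrafish of the wild-type AB strain that had been exposed to PCB126 at 0.4 nM were compared with unexposed controls, 4 libraries against 4. The 8 libraries were taken by their treatment labels from 28 libraries in 7 groups of 4. The other groups received PCB126 at 0.08 or 0.8 nM or cadmium (Cd) at 2.4, 12 or 24 ug/L. The animals of all groups lived in E3 medium at 28.5 °C and were exposed from day 1 to day 5 after fertilization, by which time zebrafish are free-swimming larvae. The labels name no vehicle for PCB126 and no control of its own for that chemical. The library names of the controls carry the Cd prefix. Neither the order nor the clock time of collection is stated, so a difference in handling between the control and PCB126 groups cannot be told apart from PCB126. Whether a group's 4 libraries represent separate clutches, dishes or pools is not stated, so p-values reflect only the spread among the libraries, which may be technical.

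PCB126 is a coplanar polychlorinated biphenyl that binds the aryl hydrocarbon receptor (AhR), a transcription factor held in the cytoplasm until a ligand binds it. The bound receptor enters the nucleus, pairs with Arnt and switches on genes with dioxin response elements, first among them those of the cytochrome P450 family 1 (CYP1). Zebrafish have several AhR genes, and Ahr2 is the one known to mediate the toxicity of dioxin-like compounds to the heart, jaw and vessels of the embryo.

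Of the 25393 genes tested, 162 were higher and 93 lower at 0.4 nM than in the controls at an adjusted p below 0.05, which is 1.00% of the genes (0.638% higher and 0.366% lower). The rises had a median log2 fold change of 0.71 and the falls one of -1.03. Of the rises 49, and of the falls 48, were at least 2-fold. The values of the 2 groups did not overlap in 159 of the 162 higher genes, against 3.51% of all tested genes. For the lower genes this was 89 of 93, against 2.93%. The calls were made on the same libraries, so this separation is no independent evidence for them. Among genes that have a proper symbol and average a log2 CPM of 1 or more, the largest rises belonged to cyp1a, cyp1c1, cyp1c2, per2 and fgf7, and the largest falls to plekhs1, gck, rgs2 and irg1l. CPM is a count scaled to the library's total and its TMM (trimmed mean of M-values) factor.

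Control replicate 4 stood apart from the other 7 libraries. Ribosomal protein genes held 12.03% of its counts, against 5.81 to 6.14% in the others, and its TMM factor was 0.646, against 1.025 to 1.067. The total counts of the 8 libraries ran from 13080458 to 18353135. Cd 2.4 ug/L replicate 3, which enters the estimate of spread, had a like composition (12.42% and 0.687). Without control replicate 4, 194 genes were higher (0.756%) and 72 lower (0.281%), 1.04% in all, and 193 genes were called in both fits. With both of these libraries left out, 634 were higher (2.48%) and 280 lower (1.09%), 3.57% in all, and 252 of the 255 genes were still called. A fit of the 8 libraries alone called 37 genes, and 641 without control replicate 4, a setting chosen after seeing the data. DESeq2 called 469 genes. Without 0.4 nM replicate 2 or 4 the main test called 144 or 165. Each marker list of a tissue, from lens, muscle and liver to skin and gut, had members with counts. In a whole animal fewer cells of a type and less RNA per cell cannot be told apart.

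**Figure D1:**
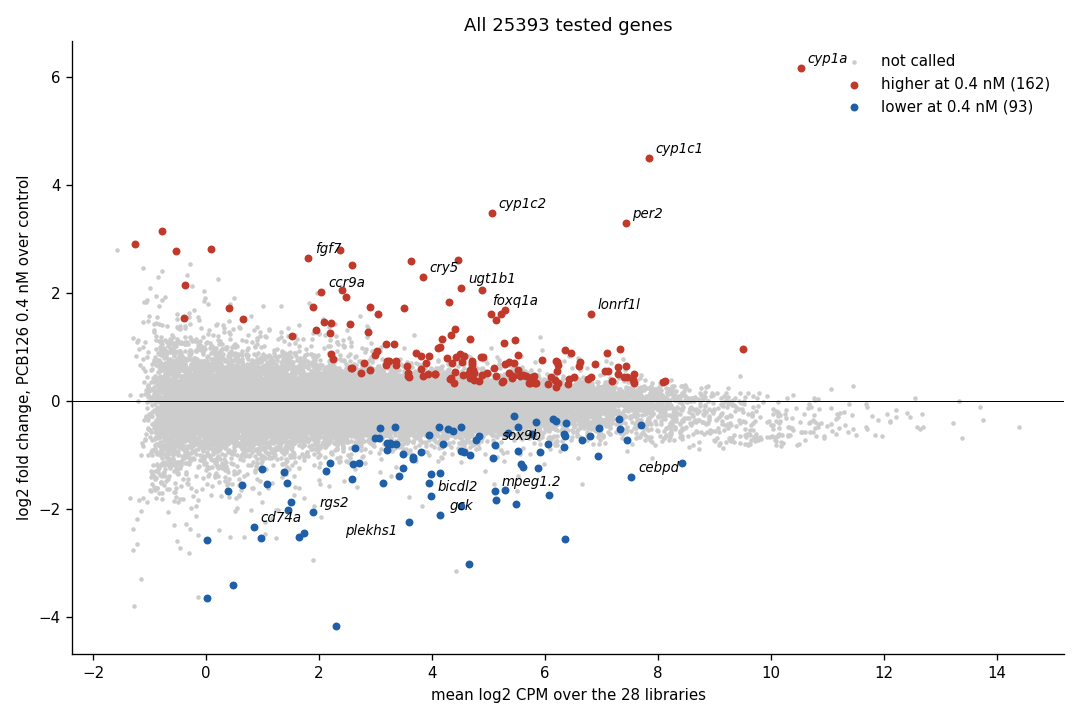
Log2 fold change of PCB126 0.4 nM over control (y axis) against mean log2 CPM over the 28 libraries (x axis) for the 25393 tested genes. Red points are the 162 genes called higher and blue points the 93 called lower; cyp1a, at 6.16, lies farthest from 0.

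The CYP1 enzymes, which oxidize planar aromatic compounds, showed the largest rises. cyp1a lies on the minus strand of chromosome 18 (GRCz11, 5588068 to 5598958). It was measured at 43.2, 38.9, 40.1 and 51.1 CPM in the 4 controls and at 2386, 3443, 3305 and 3286 CPM at 0.4 nM. The lowest exposed library was thus far above the highest control, and replicate 1 was the lowest of the exposed. Its log2 fold change was 6.16 ± 0.14 (SE, n = 4 and 4, adjusted p = 7.27e-21), a 71.5-fold rise.

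cyp1c1, on an unplaced scaffold, was measured at 21.9, 22.4, 22.1 and 23.3 CPM in the controls and at 414, 537, 526 and 556 CPM at 0.4 nM. Its control values differed little, and replicate 1 was again the lowest exposed library. The log2 fold change was 4.50 ± 0.10 (SE, n = 4 and 4, adjusted p = 4.11e-21). cyp1c2, on chromosome 17 (996509 to 998695, plus strand), had 4.76, 5.25, 4.78 and 5.02 CPM in the controls and 44.7, 64.3, 52.9 and 59.5 CPM when exposed. The groups lay apart, with a log2 fold change of 3.48 ± 0.15 (SE, adjusted p = 2.44e-14).

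cyp1d1 is the CYP1 gene known in zebrafish not to be induced by dioxin. It had 25.3, 25.2, 27.3 and 30.6 CPM in the controls and 29, 30.5, 29.4 and 31.3 CPM at 0.4 nM. The groups overlapped through control replicate 4 alone. Its log2 fold change was 0.15 ± 0.10 (SE, adjusted p = 0.594). It was 0.21 ± 0.11 without control replicate 4 (adjusted p = 0.6) and 0.22 ± 0.08 without both divergent libraries (adjusted p = 0.127), not called in either fit. On the authors' TPM values, which are scaled by gene length, the order of levels at 0.4 nM was cyp1a at 2622 ± 403, cyp1c1 at 365 ± 45.7, cyp1c2 at 55.8 ± 8.23 and cyp1d1 at 11 ± 0.403 TPM (SD, n = 4). In the controls cyp1a stood at 32.0 ± 7.17 and cyp1d1 at 8.78 ± 2.14 TPM.

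The gene annotated as cyp1b1 held only 9 counts over the 28 libraries and was not tested. An unannotated locus on an alternate contig of chromosome 13, which the count table's own description matches to cytochrome P450 1B1, was counted separately. It had 1.07, 0.845, 1.5 and 0.456 CPM in the controls and 5.50, 7.39, 6.39 and 8.50 CPM at 0.4 nM. The groups did not overlap, and the log2 fold change was 2.80 ± 0.25 (SE, adjusted p = 7.48e-08). The locus was chosen after its values were seen. Loci without an Ensembl identifier made up 22 of the 162 higher and 6 of the 93 lower genes.

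**Figure D2:**
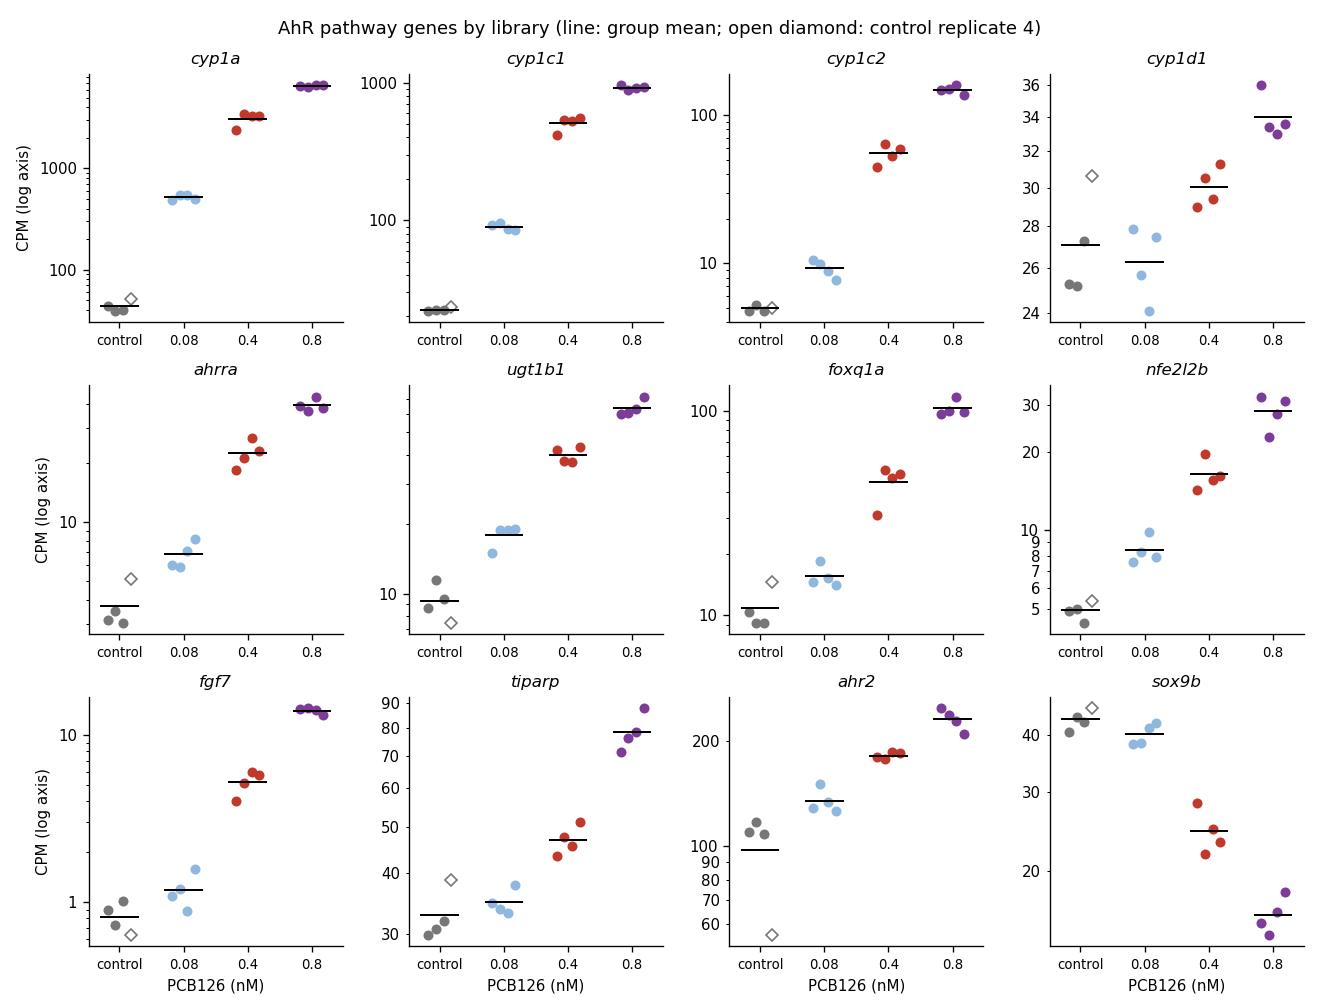
CPM per library (points, log axis) of 12 genes in the control and the 3 PCB126 groups, with the group mean as a line and control replicate 4 as an open diamond. At 0.4 nM cyp1a lies at 2386 to 3443 CPM against 38.9 to 51.1 in the controls, cyp1d1 overlaps the controls, and sox9b lies below them.

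Of the 18 tested genes on a list of AhR targets, 11 were higher and 1 was lower at 0.4 nM (background 0.638% higher and 0.366% lower). The median log2 fold change of the 18 was 1.1, against -0.02 over all tested genes. With both divergent libraries left out, 13 were higher (background 2.48%) and 1 lower (1.09%), and the median was 1.36. The list was written with results of these data known.

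Genes that hold AhR signalling back were among the risers. The AhR repressor gene ahrra carries a clone name in the count table and was matched by its identifier, on chromosome 24. It had 3.15, 3.50, 3.05 and 5.11 CPM in the controls and 18.4, 21.1, 26.8 and 23.0 CPM at 0.4 nM. The groups lay apart, and the log2 fold change was 2.60 ± 0.18 (SE, adjusted p = 3.85e-10). ahrrb held 87 counts over the 28 libraries and was not tested. An unannotated locus on an alternate contig of chromosome 2, matched by the table's description to an AhR repressor and chosen after its values were seen, had 6.30, 8.45, 6.58 and 7.21 CPM in the controls and 45.2, 55.3, 41.5 and 32.9 CPM when exposed. Its log2 fold change was 2.61 ± 0.24 (SE, adjusted p = 1.36e-07). Counts of such loci may be split with copies of the gene elsewhere in the assembly, so their levels are uncertain. tiparp, an enzyme known to inactivate AhR in mouse, had 29.9, 30.7, 31.9 and 38.8 CPM in the controls and 43.4, 47.6, 45.5 and 51.2 CPM at 0.4 nM. The groups did not overlap, although the rise was small (log2 fold change 0.52 ± 0.10, SE, adjusted p = 0.00438).

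Of the 11 tested receptors and partners, ahr2 alone was called against the controls with all 28 libraries. It had 110, 117 and 108 CPM in control replicates 1 to 3, 55.9 in replicate 4, and 179, 177, 185 and 184 CPM at 0.4 nM. The exposed values lay close together, and control replicate 4 was far below the other controls. The log2 fold change was 0.89 ± 0.15 (SE, adjusted p = 0.0015), and 0.70 without control replicate 4 (adjusted p = 0.000201). ahr1a, at 1.01 to 2.87 CPM in the controls and 2.99 to 4.62 CPM at 0.4 nM, had a log2 fold change of 0.89 ± 0.27 (SE, adjusted p = 0.143). The groups did not overlap. Without both divergent libraries ahr1a was called too (0.97, adjusted p = 0.0321), and 2 of the list were higher (background 2.48%). It was also called higher at 0.4 than at 0.08 nM (1.37, adjusted p = 0.018) and at 0.8 than at 0.08 nM (1.99, adjusted p = 0.000105). ahr1b was at 2.01 CPM in control replicate 4 and 19.7 to 20.5 in the others, against 14.4 to 18 CPM at 0.4 nM. Its log2 fold change was 0.08 ± 0.42 (SE, adjusted p = 0.955), and without control replicate 4 the sign turned, to -0.27 (adjusted p = 0.939).

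With all 28 libraries, few other genes for the handling of foreign compounds were called. ugt1b1, a glucuronosyltransferase, had 8.68, 11.5, 9.51 and 7.48 CPM in the controls and 41.8, 37.7, 37.2 and 43.3 CPM at 0.4 nM. The groups lay apart (log2 fold change 2.1 ± 0.15, SE, adjusted p = 1.49e-09), and it was the only called gene of 32 tested UGT and sulfotransferase genes on that list (background 0.638% higher). Without control replicate 4, 3 of the list were higher (background 0.756%). Without both divergent libraries 4 were higher (background 2.48%), with a median log2 fold change of 0.23. cyp3a65, an intestinal and hepatic CYP3A enzyme, had 382, 369 and 420 CPM in control replicates 1 to 3, 847 in replicate 4, and 881 to 1048 CPM at 0.4 nM. Control replicate 4 lay close to the exposed libraries. On the log2 scale the rise was 0.96 ± 0.19 (SE, adjusted p = 0.00606), and 1.33 without that library. cyp3a65 was the only called gene among 28 tested CYP2, CYP3 and CYP4 genes. Without both divergent libraries 2 of these were higher (background 2.48%), with a median log2 fold change of 0.08.

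Nrf2 is the transcription factor that switches on antioxidant and conjugation genes, and Keap1 binds it and marks it for breakdown. Of 36 tested genes on the Nrf2 list, 4 were higher (background 0.638%) and none was lower by edgeR, and the median log2 fold change was 0.0. With both divergent libraries left out 9 were higher (background 2.48%), with a median of 0.23. nfe2l2b, a zebrafish Nrf2 copy, had 4.93, 5.01, 4.43 and 5.38 CPM in the controls and 14.2, 19.5, 15.6 and 16.1 CPM at 0.4 nM, without overlap (log2 fold change 1.73 ± 0.16, SE, adjusted p = 1.33e-07). nfe2l2a rose less, from 113 to 152 CPM in the controls to 178 to 194 CPM (0.44 ± 0.07, adjusted p = 0.000758). The other risers of the list were abcc2, an export pump for conjugates (0.41 ± 0.07, adjusted p = 0.00315), and keap1a. keap1a had a log2 fold change of 0.42 ± 0.09 (adjusted p = 0.0185). Among the 8 fits that left out 1 library it was called only without control replicate 4 or 0.4 nM replicate 1. The highest adjusted p was 0.107, without 0.4 nM replicate 3. In the Cd groups, without PCB126, every library at 12 and 24 ug/L lay above every control for nfe2l2a and nfe2l2b. Mean nfe2l2a was 162 and 176 CPM there, 185 at 0.4 nM and 136 in the controls. For nfe2l2b the Cd means were 6.89 and 8.10, against 16.3 and 4.94. For keap1a they were 25.6 and 26.9, against 26.7 and 19.9. abcc2 overlapped the controls at both Cd doses. The Cd differences were not tested. A further 3 genes, chosen after their values were seen, were porb, the electron donor of microsomal P450 enzymes (log2 fold change 0.51 ± 0.06, adjusted p = 1.02e-05), cyb5a, a microsomal cytochrome b5 (0.89 ± 0.14, adjusted p = 0.000687), and abcg2a, an export pump (0.67 ± 0.11, adjusted p = 0.00143).

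The other called members of the target list encode a growth factor and transcription factors. fgf7, a fibroblast growth factor on chromosome 18 (5428472 to 5439775), had 0.892, 0.724, 1.02 and 0.639 CPM in the controls and 4.02, 5.15, 5.96 and 5.76 CPM at 0.4 nM. The groups lay apart (log2 fold change 2.65 ± 0.33, SE, adjusted p = 2.16e-05). foxq1a, a forkhead transcription factor gene, had 10.4, 9.23, 9.21 and 14.5 CPM in the controls and 31.0, 51.3, 46.9 and 49.2 CPM when exposed. Replicate 1 was the lowest exposed library, and the log2 fold change was 2.05 ± 0.20 (SE, adjusted p = 5.34e-07). Its paralog foxq1b, known to be induced by dioxin in the zebrafish jaw, rose by 1.22 ± 0.19 (adjusted p = 0.0006), and foxf2a, a neighbour of foxq1a on chromosome 2, by 0.98 ± 0.14 (adjusted p = 9.69e-05). Both were chosen after their values were seen.

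sox9b, a transcription factor needed for cartilage in the zebrafish head and known to fall in dioxin-exposed embryos, was the only member of the target list that fell. It had 40.8, 44.0, 42.9 and 45.9 CPM in the controls and 28.3, 21.9, 24.8 and 23.2 CPM at 0.4 nM. The groups did not overlap (log2 fold change -0.82 ± 0.09, SE, adjusted p = 1.95e-06). With all 28 libraries no other gene was called among the 34 tested cartilage and bone genes, whose median log2 fold change was -0.16. Without both divergent libraries 2 of the list were higher (background 2.48%) and 3 lower (1.09%), with a median of -0.09. The summed list held 0.776 to 0.837% of counts in control replicates 1 to 3, 0.551% in replicate 4 and 0.680 to 0.739% at 0.4 nM. The part of tissue share in these values was not tested.

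The levels of these genes also differed between the PCB126 doses, in comparisons that share the 0.4 nM libraries with each other and hold no control. Between 0.4 and 0.8 nM, 53 genes were called (0.209%), 47 of them lower at 0.4 nM (0.185%) and 6 higher (0.0236%). Of the AhR target list 10 were lower and 1, sox9b, was higher at 0.4 than at 0.8 nM. Between 0.4 and 0.08 nM, 99 genes were called (0.390%), 33 of them higher (0.130%) and 66 lower (0.260%), and of the target list 9 were higher and 1 was lower. cyp1a had means of 43.3 ± 5.50 in the controls, 518 ± 29.7 at 0.08 nM, 3105 ± 485 at 0.4 nM and 6553 ± 133 CPM at 0.8 nM (SD, n = 4). Its log2 fold change at 0.4 nM was 2.58 against 0.08 nM (adjusted p = 1.38e-13) and -1.08 against 0.8 nM (adjusted p = 6.58e-06). fgf7 had means of 0.818, 1.18, 5.23 and 14 CPM over the same 4 groups. It was called against both neighbouring doses, at 2.14 (adjusted p = 0.000669) and -1.42 (adjusted p = 0.0285). sox9b had means of 43.4, 40.2, 24.6 and 16.1 CPM, and was called against both doses (-0.71, adjusted p = 8.91e-05, and 0.61, adjusted p = 0.00118). foxf2a, at 12.1, 17.5, 24.0 and 28.9 CPM, was called against neither neighbour. It was called higher at 0.8 than at 0.08 nM (0.72, adjusted p = 0.00391).

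Several genes that differed between 0.4 and 0.8 nM were not called at 0.4 nM against the controls. postna, a matrix protein of fins and bone, had 83.8 to 90.9 CPM in the controls, 81.3 to 83.9 CPM at 0.4 nM and 50.1 to 62.5 CPM at 0.8 nM. The control and 0.4 nM ranges overlap and the 0.8 nM libraries lie below both, with a log2 fold change of 0.58 between 0.4 and 0.8 nM (adjusted p = 6.16e-05). thbs4a, a tendon matrix protein, was at 14.6 to 16.1, 13.6 to 17.3 and 9.87 to 11.4 CPM (0.58, adjusted p = 0.0186). igfbp1a, a binding protein of insulin-like growth factors that was chosen after its values were seen, was at 25.6 to 34.3 CPM in the controls, 23.1 to 28.9 at 0.4 nM and 37.1 to 77.9 at 0.8 nM (-1.20, adjusted p = 0.00288). ptgs2b, a cyclooxygenase of the AhR target list, had 3.56 to 5.25, 3.02 to 4.18 and 5.15 to 9.71 CPM (-1.04, adjusted p = 0.00819). The thbs4a call was lost without 0.4 nM replicate 1 or 2 or 0.8 nM replicate 3 or 4 (at most 0.118). That of ptgs2b was lost without 0.4 nM replicate 1 or 0.8 nM replicate 3 (0.0615).

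The comparison of 0.8 with 0.08 nM, added after values were seen, shares no library with that of 0.4 nM with control. Both were tested in the same fit, however, so they share each gene's estimate of spread. Genes with a small spread are called more readily in both, so the called lists are not independent. The part of this in the overlaps below was not tested. Of the 162 genes higher at 0.4 nM than in the controls, 66 were also higher at 0.8 than at 0.08 nM. That is 40.7% of the first list and 39.1% of the 169 genes of the second, against 0.666% of all tested genes. Of the 93 lower genes 12 were also lower there, 12.9% of the first list and 13.2% of the second, against 0.358% of all. None of the 255 was called in the opposite direction by edgeR in these fits. With both divergent libraries left out, 259 of 634 higher genes were higher there, 40.9% of the first list and 16.6% of the second, against 6.11% of all genes, and 9 were lower. Of the 280 lower genes 68 were lower there, 24.3% of the first list and 5.45% of the second, against 4.87% of all genes, and 6 were higher.

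Genes that light switches on in zebrafish formed the next group of rises. Zebrafish tissues sense light directly, and per2, a clock repressor, and cry5, a light-dependent DNA repair enzyme (photolyase), are known to be induced by it. per2, on chromosome 2 (48309600 to 48375342), had 28.1, 27.5, 26.4 and 24.3 CPM in the controls and 267, 257, 262 and 261 CPM at 0.4 nM. Both groups were tight and lay far apart (log2 fold change 3.30 ± 0.13, SE, adjusted p = 1.43e-15). cry5 had 3.98, 3.38, 4.13 and 6.30 CPM in the controls and 21.7, 22.5, 20.0 and 22.6 CPM when exposed, also without overlap (2.3 ± 0.17, adjusted p = 1.49e-09).

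Of 12 tested light-induced clock genes 4 were higher (per2, cry5, cry-dash and tefa), of 15 genes listed under light-induced DNA repair 4 (cry5, cry-dash, xpc and lonrf1), and of 20 core clock genes 1 (cry1bb). cry5 and cry-dash are on both the light-induced clock and the repair list. lonrf1 is counted by list membership only, and a part in repair was not tested. No member of these lists was called lower with all 28 libraries (background 0.638% higher and 0.366% lower). Their median log2 fold changes were 0.43, 0.02 and 0.11. Without both divergent libraries (background 2.48% and 1.09%) 6, 7 and 4 were higher, 1 core clock gene was lower, and the medians were 0.22, 0.28 and 0.05. lonrf1l, among the 12 largest rises, had 45.8, 45.2, 46.4 and 50.5 CPM in the controls and 140, 145, 138 and 154 CPM at 0.4 nM (1.62 ± 0.07, adjusted p = 2.25e-14). The cryptochrome gene cry1bb rose by 1.5 ± 0.08 (adjusted p = 4.13e-12). Another cryptochrome gene, cry1aa, chosen after its values were seen, rose by 0.97 ± 0.06 (adjusted p = 1.92e-10). The DNA damage recognition gene xpc rose by 0.82 ± 0.12 (adjusted p = 0.000137).

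None of per2, cry5, cry-dash, tefa, xpc, lonrf1, lonrf1l, cry1aa and cry1bb was called between 0.4 nM and either neighbouring dose. Called higher at 0.8 than at 0.08 nM were per2 (0.46, adjusted p = 0.0453), cry5 (0.69, adjusted p = 0.0247) and lonrf1l (0.5, adjusted p = 7.29e-05). The rest of these genes were not called there. In the Cd groups, which received no PCB126, every library lay above every control for per2, lonrf1l, cry1aa and cry1bb. xpc overlapped the controls in all 3 Cd groups, and cry5 overlapped them at Cd 2.4 ug/L. Both overlaps came from control replicate 4 alone, at 20.4 CPM of xpc and 6.30 CPM of cry5. In control replicates 1 to 3, xpc was at 13.6 to 14.2 CPM and cry5 at 3.38 to 4.13 CPM. Every Cd library lay above these for xpc, as did every Cd 2.4 ug/L library for cry5. The Cd differences were not tested. per2 averaged 82.4 ± 21.4 CPM at Cd 2.4 ug/L, 139 ± 14.9 at 12 ug/L and 188 ± 7.71 at 24 ug/L, against 26.6 ± 1.67 in the controls. It averaged 215 ± 8.72 at PCB126 0.08 nM, 262 ± 3.90 at 0.4 nM and 296 ± 12.1 CPM at 0.8 nM (SD, n = 4). cry5 followed the same order of group means, 4.45, 7.63, 10.6, 13, 16.1, 21.7 and 25.9 CPM. That order is also the order in which the table lists the groups. Time and order of collection are not stated, so exposure and time of day cannot be told apart for these genes.

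**Figure D3:**
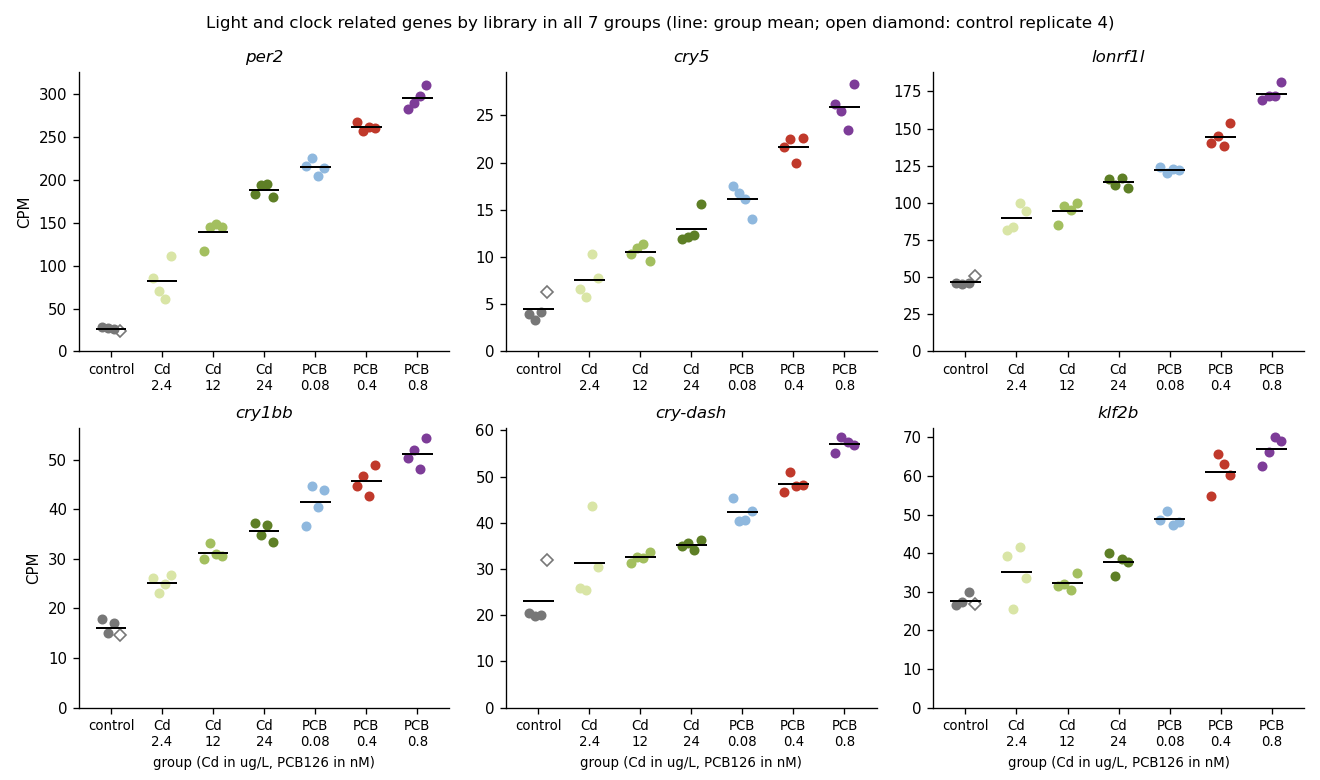
CPM per library (points, linear axis from 0) of 6 genes in all 7 groups, with group means as lines and control replicate 4 as an open diamond. Mean per2 rises from 26.6 CPM in the controls through 188 at Cd 24 ug/L to 296 CPM at PCB126 0.8 nM.

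Immediate early genes are switched on within minutes by neural activity, handling and stress. Of 31 tested, 7 were lower (background 0.366%), 1 was higher (0.638%) and the rest were not called, and the median log2 fold change was -0.41, against -0.02 over all genes. With both divergent libraries left out 10 were lower (background 1.09%) and 1 higher (2.48%), with a median of -0.36. rgs2, a brake on G protein signalling, had 5.05, 5.37, 3.83 and 5.57 CPM in the controls and 1.21, 0.597, 1.53 and 1.31 CPM at 0.4 nM. The groups lay apart (-2.06 ± 0.37, adjusted p = 0.00243). btg2, a growth-arrest gene, had 59.7 to 97.3 CPM in the controls, with replicate 4 the highest, and 42.7, 35.5, 39.5 and 37.0 CPM when exposed (-0.95 ± 0.16, adjusted p = 0.00133). dusp1, a phosphatase of MAP kinases, was at 58.8 to 69.5 CPM and 40.0 to 45.5 CPM (-0.60 ± 0.11, adjusted p = 0.0041).

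The other members that fell were chosen after their values were seen. They were jun (-0.71 ± 0.13, adjusted p = 0.00458), egr3 (-0.69 ± 0.14, adjusted p = 0.00865), fosab (-1.03 ± 0.24, adjusted p = 0.0335) and nr4a1 (-0.59 ± 0.14, adjusted p = 0.0322). The fosab call held in 1 of 8 fits that left out 1 library, that without control replicate 3 (highest adjusted p 0.163, without 0.4 nM replicate 2). That of nr4a1 was lost without control replicate 1 or 2 or 0.4 nM replicate 2 or 4 (highest 0.142). The member that rose was klf2b, a Krüppel-like transcription factor, at 26.5 to 30.0 CPM in the controls and 54.8 to 65.8 CPM at 0.4 nM (1.14 ± 0.10, adjusted p = 1.32e-07). No gene of the list was called between 0.4 nM and either neighbouring dose. Between 0.8 and 0.08 nM klf2b was called higher at 0.8 nM (0.46, adjusted p = 0.0216), and the named members that fell were not called.

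Of 20 tested genes linked to cortisol 2 were lower (background 0.366%). cebpd, a transcription factor induced by cortisol and inflammation, had 224, 206 and 203 CPM in control replicates 1 to 3, 501 in replicate 4, and 110, 99.4, 120 and 99.3 CPM at 0.4 nM. The groups did not overlap, and control replicate 4 was the highest by far. The log2 fold change was -1.40 ± 0.27 (adjusted p = 0.00557), and -0.98 without that library (adjusted p = 0.0306). hsd11b2, which inactivates cortisol, was at 25.0 to 31.4 CPM and 17.2 to 20.4 CPM (-0.64 ± 0.14, adjusted p = 0.0137), a call lost without 0.4 nM replicate 2 (adjusted p = 0.0597). No other gene of the list was called.

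In glucose metabolism, gck (lower) and pygl (higher) were the called genes of 30 (background 0.366% and 0.638%). gck encodes glucokinase, the liver enzyme that phosphorylates glucose after a meal. It had 53.7, 28.7, 27.5 and 53.8 CPM in the controls and 13.1, 10.5, 3.43 and 10.8 CPM at 0.4 nM. The groups did not overlap, although both were spread widely (-2.11 ± 0.48, adjusted p = 0.0242). The call held without control replicate 2 or 3 or 0.4 nM replicate 1 and was lost without any other of the 8 libraries (highest adjusted p 0.100, without 0.4 nM replicate 3). gck was not called between 0.4 nM and either neighbouring dose. In the Cd groups, without PCB126, its means were 25.2, 12.7 and 10.4 CPM at 2.4, 12 and 24 ug/L. The controls averaged 40.9 CPM and the 0.4 nM libraries 9.47 CPM. The Cd differences were not tested. pygl, the liver enzyme that breaks down glycogen, was at 108 to 185 CPM and 200 to 216 CPM (0.63 ± 0.13, adjusted p = 0.0104). Its call was lost without control replicate 1 or 2 or 0.4 nM replicate 2 (highest adjusted p 0.0547).

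Of 34 tested hypoxia genes 4 were higher (background 0.638%) and none was lower by edgeR, with a median log2 fold change of 0.21. egln1a, an oxygen-sensing prolyl hydroxylase, was at 1.19 to 1.84 CPM in the controls and 3.31 to 4.18 CPM at 0.4 nM (1.21 ± 0.25, adjusted p = 0.012). epas1a, a hypoxia-inducible factor that also pairs with Arnt, was at 78.1 to 111 and 133 to 162 CPM (0.55 ± 0.09, adjusted p = 0.00194). The smaller rises were hif1al (0.36 ± 0.07, adjusted p = 0.00714) and vegfaa, a vessel growth factor (0.45 ± 0.10, adjusted p = 0.0251). The egln1a call was lost without 0.4 nM replicate 2 (adjusted p = 0.0522). That of vegfaa held in 1 of 8 fits leaving out 1 library, that without control replicate 4 (highest adjusted p 0.125, without 0.4 nM replicate 2). None of the 4 genes was called between 0.4 nM and either neighbouring dose. Between 0.8 and 0.08 nM, egln1a (1.28, adjusted p = 0.0057) and epas1a (0.44, adjusted p = 0.0163) were called higher at 0.8 nM. hif1al and vegfaa were not called there. In the Cd groups, without PCB126, mean hif1al was 282 and 327 CPM at 12 and 24 ug/L. It was 270 at 0.4 nM and 210 in the controls. vegfaa averaged 11.7 and 13.2 CPM at these Cd doses, 12.9 at 0.4 nM and 9.44 in the controls. For epas1a the Cd means were 134 and 146 CPM, against 146 at 0.4 nM, and for egln1a 1.97 and 1.85, against 3.73. The Cd differences were not tested.

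Of 20 tested myeloid cell genes 1 was higher (background 0.638%) and 3 were lower (0.366%), with a median log2 fold change of -0.12. Without both divergent libraries 4 were higher (background 2.48%) and 3 lower (1.09%), with a median of -0.02. mpeg1.2, a pore-forming gene of macrophages, had 45.8, 53.3, 23.2 and 31.6 CPM in the controls and 15.0, 10.9, 12.1 and 10.9 CPM at 0.4 nM. The controls were spread and the exposed libraries were not, without overlap (-1.66 ± 0.27, adjusted p = 0.000754). At 0.08 nM mpeg1.2 was at 33.9 to 58.2 CPM and at 0.8 nM at 21.1 to 35.0 CPM, both overlapping the controls. It was called lower at 0.4 than at 0.08 nM (-1.92, adjusted p = 0.000328) and not called against 0.8 nM (-1.21, adjusted p = 0.0519). cd74a, the invariant chain that loads antigen onto MHC class II, had 2.56, 2.71 and 2.15 CPM in control replicates 1 to 3, 5.84 in replicate 4, and 0.268, 0.747, 0.528 and 1.03 CPM when exposed (-2.33 ± 0.40, adjusted p = 0.0017). Its paralog cd74b was at 3.63 to 3.83 CPM in those 3 controls, higher in replicate 4, and 1.01 to 1.95 CPM at 0.4 nM (-1.87 ± 0.38, adjusted p = 0.0098). The cd74b call was lost without control replicate 4 (-1.36, adjusted p = 0.0525) or 0.4 nM replicate 2. It held without both divergent libraries (-1.35, adjusted p = 0.00242). The neutrophil enzyme mpx rose, from 16.2 to 20.1 CPM to 20.5 to 37.9 CPM (0.73 ± 0.15, adjusted p = 0.0112). This call was lost without 0.4 nM replicate 2 (adjusted p = 0.0781) or 4. At 0.8 nM cd74a (0.273 to 0.987 CPM) and cd74b (1.09 to 2.11 CPM) lay below every control, and mpx (17.0 to 21.9 CPM) overlapped the controls. At Cd 24 ug/L, without PCB126, mpx was at 21.2 to 33.1 CPM, above every control. There cd74a (0.765 to 1.72 CPM) and cd74b (1.02 to 2.43 CPM) lay below every control, and mpeg1.2 (33.8 to 48.8 CPM) overlapped the controls. The Cd differences were not tested. The summed share of the myeloid list was 0.0578 to 0.0601% of counts in control replicates 1 to 3, 0.0997% in replicate 4 and 0.0568 to 0.0617% at 0.4 nM, overlapping the first 3 controls; the part of cell number in these values was not tested.

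The other immune-related genes among the largest falls were irg1l and lacc1. irg1l had 45.5, 68.9, 21.5 and 52.8 CPM in the controls and 15.6, 9.70, 14.5 and 10.8 CPM at 0.4 nM (-1.90 ± 0.42, adjusted p = 0.0192). Its call was lost without control replicate 2 or 0.4 nM replicate 2, 3 or 4 (highest adjusted p 0.0958). At 0.08 nM irg1l was at 30.4 to 63.6 CPM and at 0.8 nM at 21.2 to 73.4 CPM, both overlapping the controls. It was not called between 0.4 nM and either dose (-1.76, adjusted p = 0.0679, and -1.89, adjusted p = 0.0604). lacc1 was at 4.67 to 6.09 and 1.88 to 2.46 CPM (-1.29 ± 0.19, adjusted p = 0.000247). At 0.8 nM lacc1 was at 2.11 to 3.34 CPM, below every control. ccr9a, a chemokine receptor, was among the largest rises, with 1.55, 1.93, 1.67 and 2.01 CPM in the controls and 4.56, 7.39, 7.81 and 9.36 CPM at 0.4 nM (2.03 ± 0.30, adjusted p = 0.000223).

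The remaining genes of the 12 largest rises and falls were ostn, plekhs1, bicdl2, viml, sult5a1 and angptl1b. ostn, which encodes the secreted peptide osteocrin, had 1.66, 2.11, 1.97 and 0.365 CPM in the controls and 4.83 to 6.33 CPM at 0.4 nM (1.74 ± 0.31, adjusted p = 0.00239). bicdl2, a dynein adaptor gene, had 24.6, 20.0, 19.3 and 42.9 CPM in the controls and 10.4, 8.59, 6.33 and 6.22 CPM when exposed, without overlap (-1.76 ± 0.24, adjusted p = 0.000103). Also called lower were viml (-1.52 ± 0.36, adjusted p = 0.0332) and angptl1b (-1.32 ± 0.31, adjusted p = 0.0335). With 1 library left out, both calls held only while control replicate 4 and each 0.4 nM library were kept. Without control replicate 4 their adjusted p was 0.167 and 0.186. Without both divergent libraries viml was called (-1.09, adjusted p = 0.0199) and angptl1b was not (-0.77, adjusted p = 0.0641). Control replicate 4 held 6.12 CPM of viml, against 2.29 to 2.68 in the other controls.

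The largest fall of any gene, found after the values were seen, was that of zgc:194686 on chromosome 7, a gene known by its clone name. It had 6.66, 4.46, 3.29 and 9.22 CPM in the controls, 3.02 to 6.67 CPM at 0.08 nM, and 0.537, 0.597, 0.105 and 0.114 CPM at 0.4 nM. The last 4 values rest on 20 counts in all, against 342 in the controls. The log2 fold change was -4.17 ± 0.55 (adjusted p = 5.25e-05). At 0.8 nM it was at 0.0684 to 0.916 CPM, and the 0.4 and 0.8 nM groups overlapped.

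A ferritin heavy chain-like gene of chromosome 3, fthl29, listed under a clone name and matched by identifier, had 19.9, 18 and 22.1 CPM in control replicates 1 to 3, 62.0 in replicate 4, and 6.57, 4.78, 5.49 and 3.65 CPM at 0.4 nM. The groups lay apart (-2.56 ± 0.39, adjusted p = 0.000302, and -1.97 without control replicate 4). Its neighbour fthl28 had a log2 fold change of -1.22 ± 0.30 (adjusted p = 0.0403). With 1 library left out, this call held only without control replicate 1 or 3. It was lost without control replicate 4 (-0.91, adjusted p = 0.188) and held without both divergent libraries (-0.89, adjusted p = 0.0417). These genes are members of a family of close copies, so the split of reads between them is uncertain.

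A set of genes was lower at 0.4 nM than at both the dose below and the dose above. Of the tested genes 14 (0.0551%) were called lower in both comparisons, which share the 0.4 nM libraries, and none was called higher in both by edgeR. Of the 14, 10 were also called lower than the controls. These genes were chosen after their values were seen. A group of 6 lay on chromosome 12, between 38878830 and 46367121 (GRCz11). The whole of chromosome 12 holds 3.05% of the tested genes. Among the 93 genes lower than the controls, 12 (12.9%) were on chromosome 12, and of the 162 higher genes 2 (1.23%).

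si:dkey-239b22.1 had 67.6, 94.8, 46.1 and 78.7 CPM in the controls, 108, 95.8, 85.2 and 70.5 CPM at 0.08 nM, 26.3, 18.7, 19.5 and 21.3 CPM at 0.4 nM and 49.7, 73.8, 93.2 and 48.9 CPM at 0.8 nM. The 0.4 nM libraries lay together below every library of the other 3 groups. Its log2 fold change at 0.4 nM was -1.74 ± 0.26 against the controls (adjusted p = 0.00028), -2.07 against 0.08 nM (adjusted p = 0.000101) and -1.63 against 0.8 nM (adjusted p = 0.00268). si:ch211-39f2.3, beside it, was at 7.67 to 22.6, 16.4 to 28, 5.36 to 6.6 and 14 to 27.1 CPM over the 4 groups (-1.34 ± 0.25 against the controls, adjusted p = 0.00385).

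Farther along the chromosome, zgc:153932 was at 29.6 to 67.0 CPM in the controls, 62.2 to 88.9 at 0.08 nM, 18.6 to 22.3 at 0.4 nM and 46.9 to 76.2 at 0.8 nM (-1.23 ± 0.26 against the controls, adjusted p = 0.013). si:ch211-226h7.3 was at 11.1 to 26.9, 18 to 24.5, 3.49 to 7.54 and 14.1 to 23.8 CPM (-1.51 ± 0.27, adjusted p = 0.00287). The unannotated locus of the 6, which the table matches to uromodulin, spans these genes, so reads may be split between them. The zgc:153932 call against the controls was lost without control replicate 1 or 2 or 0.4 nM replicate 4 (highest adjusted p 0.0656).

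Outside chromosome 12, sult5a1, a sulfotransferase gene and also among the 12 largest falls, had 12.0, 11.4, 6.82 and 10.6 CPM in the controls, 5.03, 3.21, 3.17 and 4.11 CPM at 0.4 nM and 8.04 to 14.5 CPM at 0.8 nM. The log2 fold change was -1.39 ± 0.31 against the controls (adjusted p = 0.0189), and this call held without control replicate 3 or 4 or 0.4 nM replicate 1 and was lost without the others (highest 0.0879). irf1b, an interferon regulatory factor, was at 6.16 to 12.7, 10.1 to 18.8, 4.63 to 6.05 and 9.73 to 21.5 CPM. It was called against both doses (-1.51, adjusted p = 0.0019, and -1.59, adjusted p = 0.00239) but not against the controls (-0.96 ± 0.25, adjusted p = 0.0604). plekhs1, the largest fall under the naming rule, does lie on chromosome 12 (30517386 to 30523229), but outside the stretch given above. It was at 7.18 to 21.4, 13 to 20.7, 2.85 to 3.42 and 4.79 to 13.8 CPM. It was called against the controls (-2.24 ± 0.39, adjusted p = 0.0018) and 0.08 nM (-2.41, adjusted p = 0.00163) and not against 0.8 nM (-1.43, adjusted p = 0.177).

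**Figure D4:**
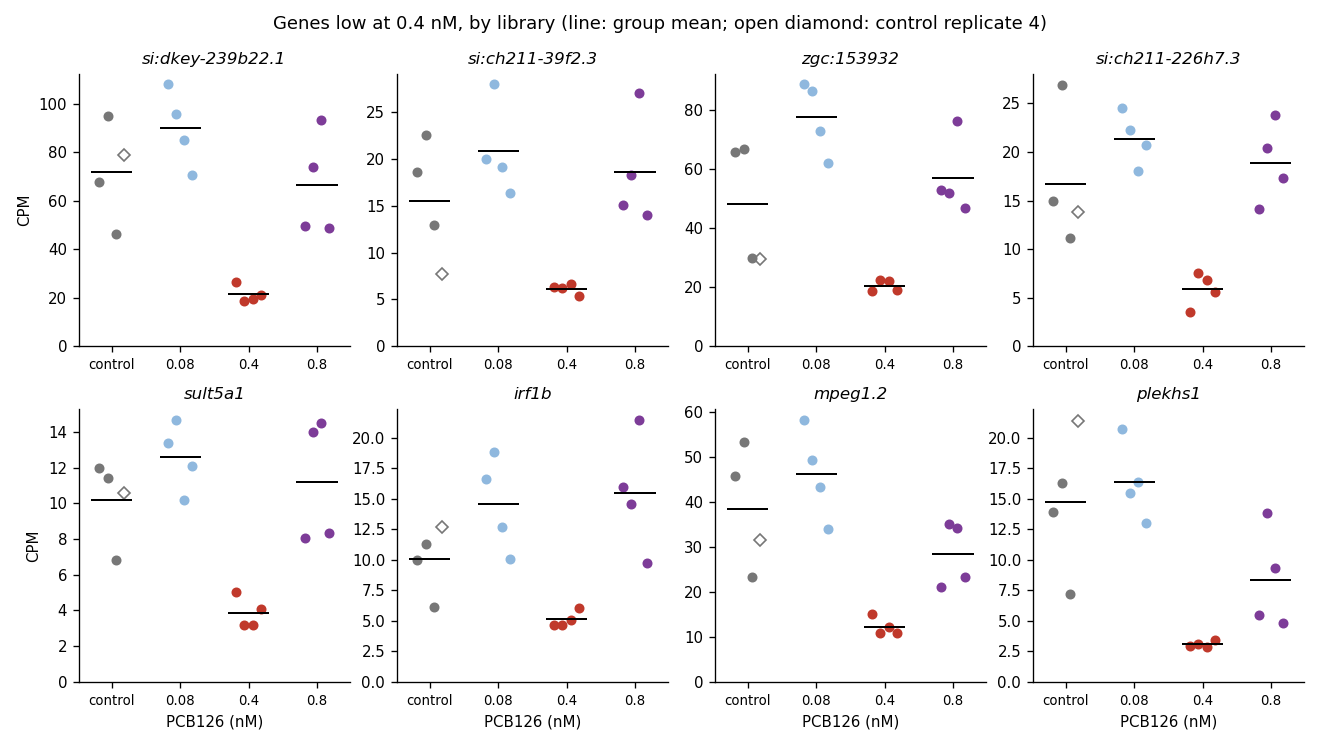
CPM per library (points, linear axis from 0) of 8 genes in the control and the 3 PCB126 groups, with group means as lines and control replicate 4 as an open diamond. The 0.4 nM libraries of si:dkey-239b22.1 lie at 18.7 to 26.3 CPM, below all libraries of the other 3 groups.

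Few muscle genes were called. Of 32 tested cardiac muscle genes 3 were lower (background 0.366%), all of them myosin heavy chains. myh7 was at 116 to 119 CPM in control replicates 1 to 3, 164 in replicate 4 and 75.8 to 88.6 CPM at 0.4 nM (-0.64 ± 0.09, adjusted p = 0.000193, and -0.50 without control replicate 4). myhb (-0.71 ± 0.15, adjusted p = 0.0111) was at 166 to 332 CPM in the controls and at 123 to 129 CPM in 3 exposed libraries, with 170 in replicate 1. myh7l (-0.48 ± 0.12, adjusted p = 0.0449) lost its call without control replicate 4 (adjusted p = 0.167) and held it only without control replicate 1 or 3. The myhb call was lost without 0.4 nM replicate 2 (adjusted p = 0.0558) or 4. In skeletal muscle 2 of 47 genes were lower, tnni2a.2 (-0.55 ± 0.12, adjusted p = 0.0132) and mybpc1 (-0.38 ± 0.08, adjusted p = 0.00894), a call that tnni2a.2 lost without 0.4 nM replicate 3 or 4 (highest 0.0666). The summed cardiac list held 0.305 to 0.328% of counts in control replicates 1 to 3, 0.217% in replicate 4 and 0.275 to 0.289% at 0.4 nM. The exposed libraries thus lay below control replicates 1 to 3 and above replicate 4. The median log2 fold change of the cardiac list was -0.44, and -0.2 without both divergent libraries. In 9 of the 32 genes every exposed library lay below every control, against 2.93% of all tested genes. The skeletal list held 9.18 to 9.37% in control replicates 1 to 3, 12.3% in replicate 4 and 8.81 to 9.13% at 0.4 nM, and its median log2 fold change moved from -0.33 to -0.03 without both divergent libraries; the part of tissue share in these values was not tested.

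Of the other tissue and pathway lists, 1 to 3 members were called in each of 9 (background 0.638% higher and 0.366% lower). No list was tested as a set. In heat shock and chaperones, serpinh1b (-0.99 ± 0.23, adjusted p = 0.0272) and dnajb1a (-0.49 ± 0.12, adjusted p = 0.0404) were lower and hspb6 (0.82 ± 0.18, adjusted p = 0.0222) was higher of 28. Each of these 3 calls was lost when 1 library was left out, control replicate 4 for serpinh1b (adjusted p = 0.136) and dnajb1a (adjusted p = 0.0602) and 0.4 nM replicate 2 for hspb6 (adjusted p = 0.0944), among others. Of inflammation and metal handling, the iron hormone hepcidin, hamp, was called lower (-3.41 ± 0.74, adjusted p = 0.0168). It had 0.416, 1.15, 2.99 and 3.1 CPM in the controls. At 0.4 nM it had 0.114 to 0.211 CPM and rested on 11 counts in all. With 1 library left out, the call held only without control replicate 1 or 2 (highest adjusted p 0.0782). It held without both divergent libraries (-3.1, adjusted p = 0.0127). A gene with 2 identifiers, mmp13a, was called higher and is uncertain. Inflammation had 1 higher and 2 lower of 27 tested genes, and metal handling 3 lower of 35. The other lists had 1 called member each. These were the lipid elongase elovl7b (-1.16 ± 0.24, of 36 tested), the calcium channel trpv6 (-0.48 ± 0.12, of 27) and the keratin krt94 (-0.85 ± 0.19, of 34). The vessel marker vwf (0.75 ± 0.13, of 28) and the photoreceptor calcium sensor rcvrn3 (0.37 ± 0.07, of 49) were higher. Their lists did not rise with them. The median log2 fold change was -0.07 for the endothelium list and -0.05 for the photoreceptor list. Without both divergent libraries these were -0.18 and -0.02. The summed endothelium share was 0.0416 to 0.0441% of counts in control replicates 1 to 3, 0.0217% in replicate 4 and 0.0369 to 0.0386% at 0.4 nM. The p53 target list had btg2, given above, of 19. The krt94 call was lost without control replicate 4 (-0.49, adjusted p = 0.0854) or any 0.4 nM library. The trpv6 call was lost without any library but control replicate 1 (highest adjusted p 0.136). Without both divergent libraries krt94 (adjusted p = 0.000182) and trpv6 (0.0122) were called. In that fit serpinh1b (0.0249), dnajb1a (0.0106) and hspb6 (3.75e-05) were called too.

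No member was called by edgeR among the tested genes of the lens (34), neurons (34), glia (19), hepatocytes (47), exocrine pancreas (27), intestine (22), proliferation (50), thyroid (15), cholesterol synthesis (21) and retinoic acid (18) lists. Their medians moved with the choice of libraries. The lens median was -0.42 with all libraries and 0.12 without both divergent ones, that of the exocrine pancreas -0.56 and -0.06, and that of the hepatocyte genes -0.08 and 0.25. The summed lens share was 0.798 to 0.815% of counts in control replicates 1 to 3, 1.54% in replicate 4 and 0.779 to 0.922% at 0.4 nM.

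**Figure D5:**
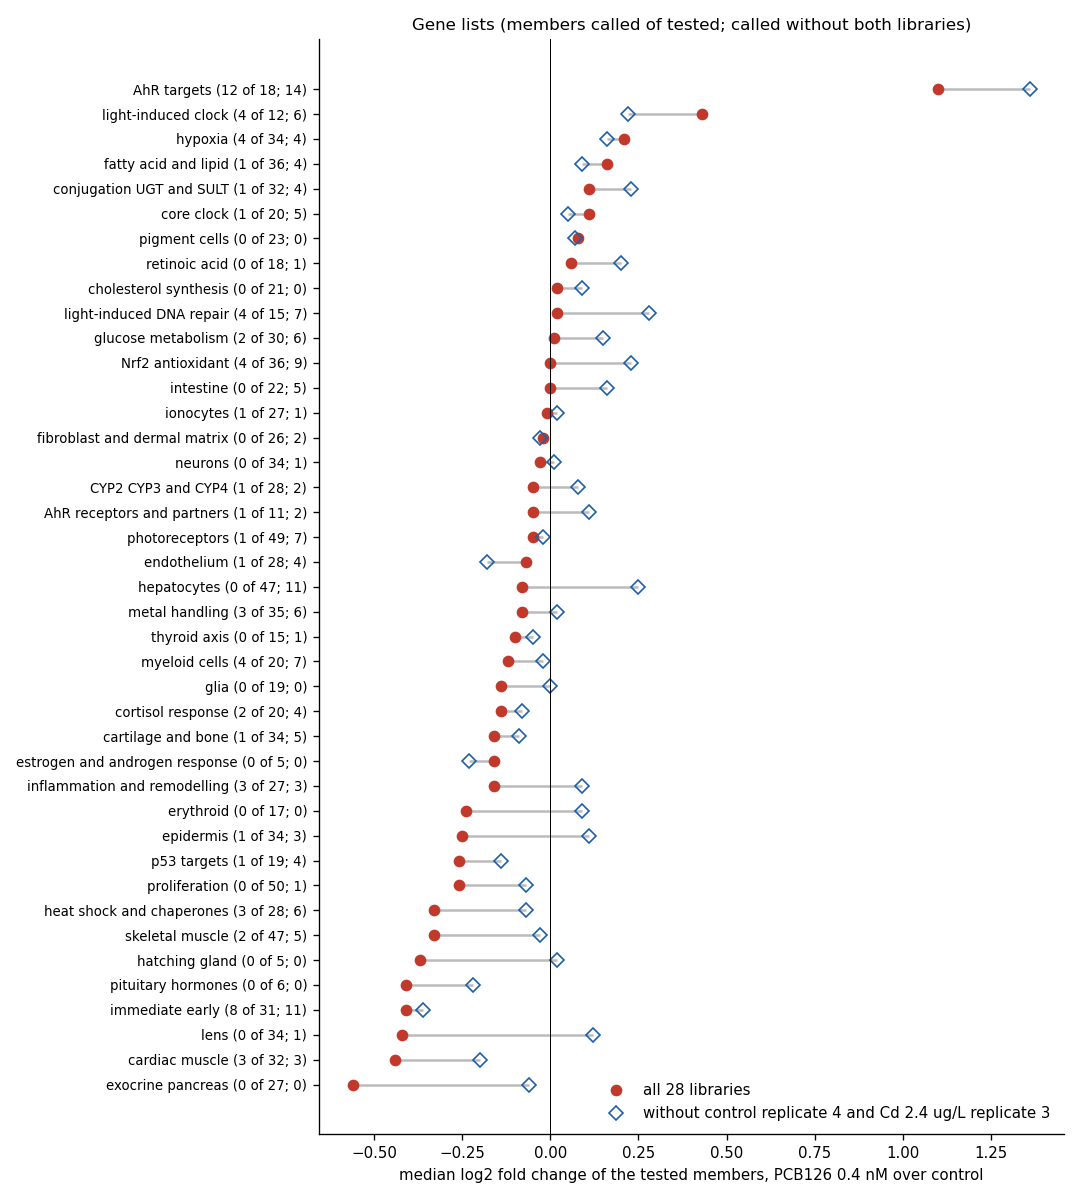
Median log2 fold change of the tested members of each gene list at 0.4 nM over control (x axis), with all 28 libraries (red points) and without control replicate 4 and Cd 2.4 ug/L replicate 3 (open blue diamonds). The AhR target list lies farthest right in both fits, at 1.1 and 1.36, while the lens list moves from -0.42 to 0.12.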

How the data were processed

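RNA from whole zebrafish was sequenced in 28 libraries. HISAT2 2.0.5, featureCounts 1.5.0-p3 and the build GRCz11 are named in the submitters' processing notes; the annotation release and the strand setting are not given in the sources used here, so reads of antisense and overlapping genes cannot be told apart. The authors deposited raw read counts for 38318 genes, with gene lengths, and TPM values for 27475 genes. Unannotated loci held 7.71% of counts.

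Groups came from the treatment labels. Counts were tested with edgeR 4.0.16 (R 4.3.3): filterByExpr, TMM scaling, a quasi-likelihood fit of all 28 libraries with a mean per group (21 residual degrees of freedom), two-sided tests and Benjamini-Hochberg adjustment over the 25393 genes kept, called below 0.05. SE is the log2 fold change over the square root of F. CPM is counts over library total times TMM factor. The code was tested on simulated counts. TPM was used for levels between genes and, as log2(TPM + 1), in limma 3.58.1. Alternatives were DESeq2 1.42.0, its size factors in edgeR, other filters, fewer libraries, a replicate block and each library left out. Members and lists were chosen with earlier results of these data known. Named genes were the 12 largest rises and 12 largest falls that were called, averaged a log2 CPM of 1 or more, had no clone name and had every library on its side of the other group's mean; the 4 largest in each direction against the other doses by the same terms; up to 4 members of each list with the smallest p; and a set of AhR pathway genes with per2, cry5 and gck regardless of values; others are said to be chosen after their values were seen. A planned motif count in promoters was not run, since no promoter sequence was used here.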

Additional observations from a re-analysis of the deposited data

Results flagged for a closer look

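Chance places a library outside the limit used (Dixon's 95% value) in about 1 in 20 groups of 4. Over 200 sets of 4 CPM values, from 100 genes in the control and 0.4 nM groups, 21 had an outlying library, and in 16 of them it was control replicate 4.

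Control replicate 4 was the outlying control for its TMM factor (0.646) and ribosomal protein share (12.03%). It was low for ahr2 (55.9 CPM) and ahr1b (2.01 CPM). It was high for cyp3a65 (847 CPM), cry-dash (31.9), tefa (57.5), xpc (20.4), jun (178) and cebpd (501 CPM). It was also high for cd74a (5.84 CPM), cd74b (10.22), myh7 (164), serpinh1b (72.9), hspb6 (27.6), krt94 (167), viml (6.12) and fthl29 (62.0 CPM).

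At 0.4 nM, replicate 1 lay apart for cyp1a (2386 CPM, low), myhb (170 CPM, high) and the ribosomal protein share (5.81%, low). Replicate 3 lay apart for ostn (6.33 CPM, high) and si:ch211-226h7.8 (0.211 CPM, low), and replicate 4 for myh7l (38.2 CPM, high).

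The Cd groups enter the fit but are not compared here, and only per2 and cry5 were checked in them by rule. They held signal above the controls for per2, with means of 82.4, 139 and 188 CPM at 2.4, 12 and 24 ug/L, and for cry5, with 10.6 and 13 CPM at 12 and 24 ug/L. Other named genes also lay beyond every control at Cd 12 and 24 ug/L. Among them porb and hif1al lay above and gck and serpinh1b below, while cyp1a overlapped the controls.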

How the results depend on the processing

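The count against control was 914 without both divergent libraries, 37 with the 8 libraries alone and 469 by DESeq2. With control replicate 4 left out as well, settings chosen after seeing the data, it was 641 with the libraries compared alone and 732 with control and PCB126 only. Against 0.8 nM the counts were 92 without control replicate 4, 626 without both libraries, 158 with 8 libraries, 32 with control and PCB126 only, 384 with those less control replicate 4, and 187 by DESeq2. Against 0.08 nM they were 152, 710, 534, 650 and 201 for the same settings, control and PCB126 only aside. Leaving out 1 library gave 144 to 267 calls against control, 25 to 92 against 0.8 nM and 50 to 152 against 0.08 nM. The causes were not tested.

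Of 86 called named genes 58 were called in all 8 omissions. The sign of ahr1b, 0.08 (-0.27 to 0.24 with 1 library left out), turned to -0.27 without control replicate 4 (also with the libraries compared alone, with control and PCB126 only, and under the block) and to -0.26 without both libraries; neither it nor its reversal was called. Of the named genes, 62 lost their call with 8 libraries alone and 37 in limma on log2(TPM + 1), where it called 223 genes against control. Same-numbered libraries did not deviate together (correlations of -0.13 to 0.08). The control deviations include the divergent replicate 4, so this does not settle whether the numbers pair libraries. A replicate block gave 233, 41 and 88 calls against control, 0.8 and 0.08 nM, and 6 named genes lost their call. Genes with few counts are limited by depth: zgc:194686 and hamp rested on 20 and 11 counts at 0.4 nM.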

Other observations

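None of the 47 tested hepatocyte genes was called by edgeR with all 28 libraries. Without control replicate 4 and Cd 2.4 ug/L replicate 3, 11 were higher, by log2 fold changes of 0.26 to 0.57, and none was lower; the background there was 2.48% of genes higher and 1.09% lower. The rest did not pass. In the same fit 5 of 22 intestine genes were higher and none was lower. The intestine list held 0.229 to 0.245% of counts in control replicates 1 to 3, 0.253% in replicate 4 and 0.261 to 0.275% at 0.4 nM. The hepatocyte list held 1.70 to 1.79%, 2.25% and 1.98 to 2.2%, so control replicate 4 lay above every exposed library. The part of tissue share in these values was not tested. The 11 hepatocyte genes were apoea (0.57 ± 0.12, adjusted p = 0.00756), cp, the copper carrier ceruloplasmin (0.55 ± 0.09, adjusted p = 0.000247), the complement gene c3b.2, the iron carrier gene tfa (0.43 ± 0.07, adjusted p = 0.000329), the apolipoprotein genes apoc2, apoa4b.1, apoa2, apobb.1 and apoa1b, the prothrombin gene f2 and the retinol carrier gene rbp4. These genes were chosen after their values were seen.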
